A study of Mus musculus with 7 samples.

Results

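The cells described here were C57BL/6 mouse embryonic fibroblasts (MEF) that had been given viruses carrying Olig2 and Sox10 and, following the protocol given for induced OPCs, were kept in OPC medium, the library labelled MEF-2F. Every barcode of this library with 500 or more unique molecular identifiers (UMIs, each standing for 1 captured transcript) was taken, which gave 82 cells, all of the library's barcodes, of the 1124 such cells in the 7 libraries of the series. The study set out to turn fibroblasts and cultured pericytes into oligodendrocyte progenitor cells (OPCs) by forced expression of these transcription factors, with or without Nkx6.2. Each condition was captured once in droplets, as 1 library, so no replicate exists and no test between conditions or cells was made. Whether the library came from 1 culture or several, and what share of its fibroblasts took up either virus, is not given in the sources used here.

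As background, OPCs are the cells of the central nervous system that give rise to oligodendrocytes, and Olig2 and Sox10 are transcription factors of that lineage. Sox10 is also a central factor of the neural crest and of Schwann cells, the glia that myelinate peripheral nerves, where it works upstream of the receptor Erbb3. Ednrb is the endothelin receptor B of neural crest and glial cells, Col2a1 encodes the chain of type II collagen, the main collagen of cartilage, and Serpine2 is a secreted inhibitor of serine proteases. These 3 genes mark different ways in which the cells of the library differed, or did not differ, from each other.

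The 82 cells held 229912 UMIs, between 567 and 8415 per cell with a median of 2411, and the lowest, at 567, lay just above the minimum. Values are stored as places in a list of the counts that occur, and they were turned back into UMI counts separately in each of 2 blocks of barcodes, of 65 and 17 cells. The labels do not say what the blocks are. Places that could be read with a probability of at least 0.99 held 98.0% of the UMIs in block 1 and 92.5% in block 2. No barcode was shared with another library. Of fibroblast markers, Col1a1 was in 42 cells and Dcn in 6, and Thy1 was not listed, while Sparc was in all 82. The whole fibroblast and matrix list made up between 1.62% and 11.1% of a cell's UMIs, with a median of 3.66%. Mitochondrial transcripts made up a median of 0.178% of a cell's UMIs and at most 4.62%. Levels below are summed UMIs of a group of cells scaled to CPM, with exact 95% Poisson intervals, shares of cells carry exact 95% binomial intervals (Clopper-Pearson), and both cover counting error only.

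Ednrb divided the library. It had 480 UMIs in 45 of the 82 cells, and a cell gave between 0% and 1.57% of its UMIs to it, with a median of 0.0566%. Col2a1 had 786 UMIs in 32 cells, and a cell gave between 0% and 3.49% of its UMIs to it, with a median of 0%. The cells high in one of these genes were seldom those with the other, and 6 cells held both, 39 Ednrb alone, 26 Col2a1 alone and 11 neither. Serpine2 was spread evenly instead, with 1738 UMIs in 81 cells (1730 to 2456 UMIs over the counts its places can stand for), between 0% and 2.64% of a cell's UMIs and a median of 0.680%.

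The same contrast stood in the variance between cells beyond what counting alone gives at each cell's depth, expressed over the squared mean and called excess here. An excess of 0 is pure counting error, and an excess of 1 means a true spread as large as the mean. It was 6.75 for Col2a1, 1.92 for Ednrb and 0.270 for Serpine2, beside a median of 0.276 over the 729 named genes with 50 or more UMIs. Of the Col2a1 UMIs, 31.4% came from 1 block 2 cell whose place can stand for 25 or for a count near 247. Read as 25, it left Col2a1 at 564 UMIs and an excess of 3.80.

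Clustering the 82 cells on their own gave 5 clusters. They were named after a cell type where at least 3 of its markers were among the leading genes and none of the leading genes went against the name, and after a leading gene otherwise. The cells were clustered by the same genes that describe them, so the levels below are descriptions and no test of the clusters. A Schwann-like cluster held 25 cells, or 30.5% of the library (20.8% to 41.6%). A cartilage-like cluster held 16 cells, a fibroblast-like cluster 9, and 2 clusters left unnamed held 18 and 14 cells and are called the Fbn2 and the Apoe cluster. The Fbn2 cluster had the OPC list members Cspg5, Vcan and Bcan among its leading genes, but the cartilage-like cells held the same genes, Hapln1 of the cartilage list led it too, and Pdgfra was in 3 of its cells. Median depth was 2641 UMIs in the Schwann-like cells, 2401 in the cartilage-like, 1749 in the fibroblast-like, 2458 in the Fbn2 cluster and 1825 in the Apoe cluster. Transcripts of ribosomal proteins had a median share of 7.54% in the Schwann-like cells and 10.6% in the fibroblast-like, with the other clusters between, and their part in the results was not tested. At a lower Leiden resolution of 0.5, the 25 Schwann-like cells stayed together, while the cartilage-like and fibroblast-like cells and 13 of the Fbn2 cluster joined 1 cluster of 38. With 500 variable genes, 16 of the Schwann-like cells fell into a cluster of 28 cells that also held 12 of the Apoe cluster, and 6 of the 9 fibroblast-like cells fell into a cluster of 19.

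**Figure D1:**
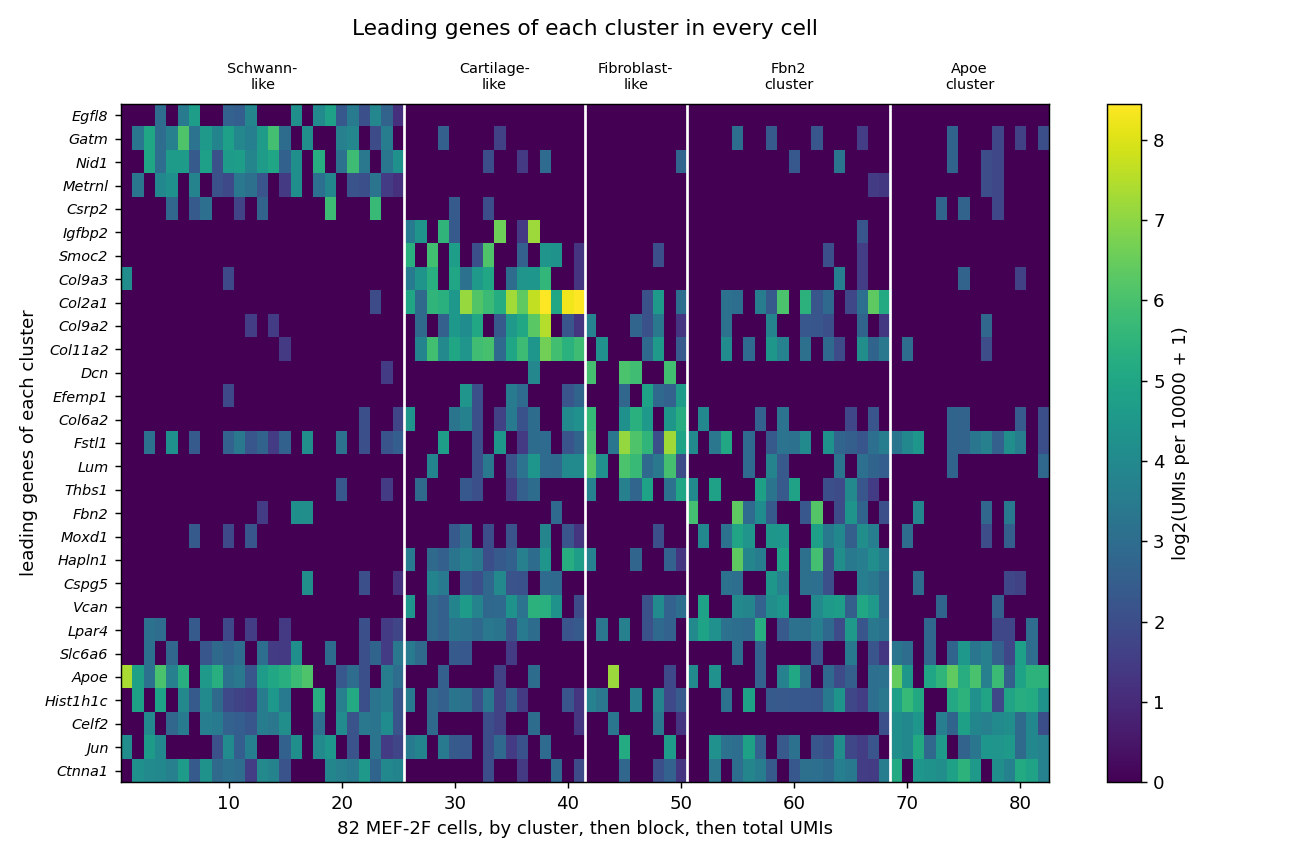
Each column is 1 of the 82 MEF-2F cells, ordered by cluster, block and total UMIs, and each row is a leading gene of a cluster; colour gives log2(UMIs per 10000 + 1). The Schwann-like genes at the top and the collagens of the cartilage-like cells fill separate sets of columns, while Col2a1 and Hapln1 extend from the cartilage-like cells into the Fbn2 cluster and Apoe runs through both the Apoe and the Schwann-like cells.

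The 25 Schwann-like cells carried the peripheral glial genes. Egfl8, which encodes a secreted protein with EGF-like domains, had 41 UMIs in 15 of the 25 cells and none in the other 57 cells. Gatm, an enzyme of creatine synthesis, and Nid1, the basement membrane protein nidogen, had 121 and 130 UMIs in these cells, at 1589 and 1707 CPM, against 10 and 14 UMIs in the others. Ngfr, the low-affinity neurotrophin receptor, stood at 867 CPM against 97.6 CPM.

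Ednrb itself lay at 4950 CPM (4463 to 5475) in the Schwann-like cells, in 24 of the 25, with 0, 12 and 56 UMIs in the lowest, the median and the highest cell. The Apoe cluster followed with 1831 CPM (1404 to 2347) in 12 of 14 cells, then the Fbn2 cluster with 821 CPM (587 to 1118) in 8 of 18 cells. The intervals of these neighbours in the order did not overlap, but they cover counting error and not the spread between cells. A single cell held 45.2% of the Ednrb UMIs of the Apoe cluster, and another 37.5% of those of the Fbn2 cluster. Thinned to 1000 UMIs, Ednrb was in 21 of 22 Schwann-like, 9 of 14 Apoe cluster and 8 of 16 Fbn2 cluster cells. In the fibroblast-like cluster 1 cell held 1 UMI. The 16 cartilage-like cells held none, which allows up to 62.7 CPM when a count of 0 is taken to allow 3.

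Of the 24 genes on the Schwann and neural crest list, 22 were listed in the library, and 15 had 10 or more UMIs at 20 CPM or more on either side of the comparison of Schwann-like cells with the rest. Of these, 11 were higher by at least 2-fold with an interval above 1 and 0 lower, where 12% of all 3792 genes compared in this way were higher. The list was drawn up with earlier results of these data known, and its genes also shaped the clusters. Foxd3, a factor of early neural crest and glial precursors, was at 565 CPM in the Schwann-like cells, in 17 of 25, but at 620 CPM in the Apoe cluster, in 10 of 14, and had no UMI in the cartilage-like and fibroblast-like cells. Cdh19 and Tfap2b were not listed. S100b went another way, with 10 UMIs in the Schwann-like cells against 18 in the cartilage-like and 17 in the Fbn2 cells.

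**Figure D2:**
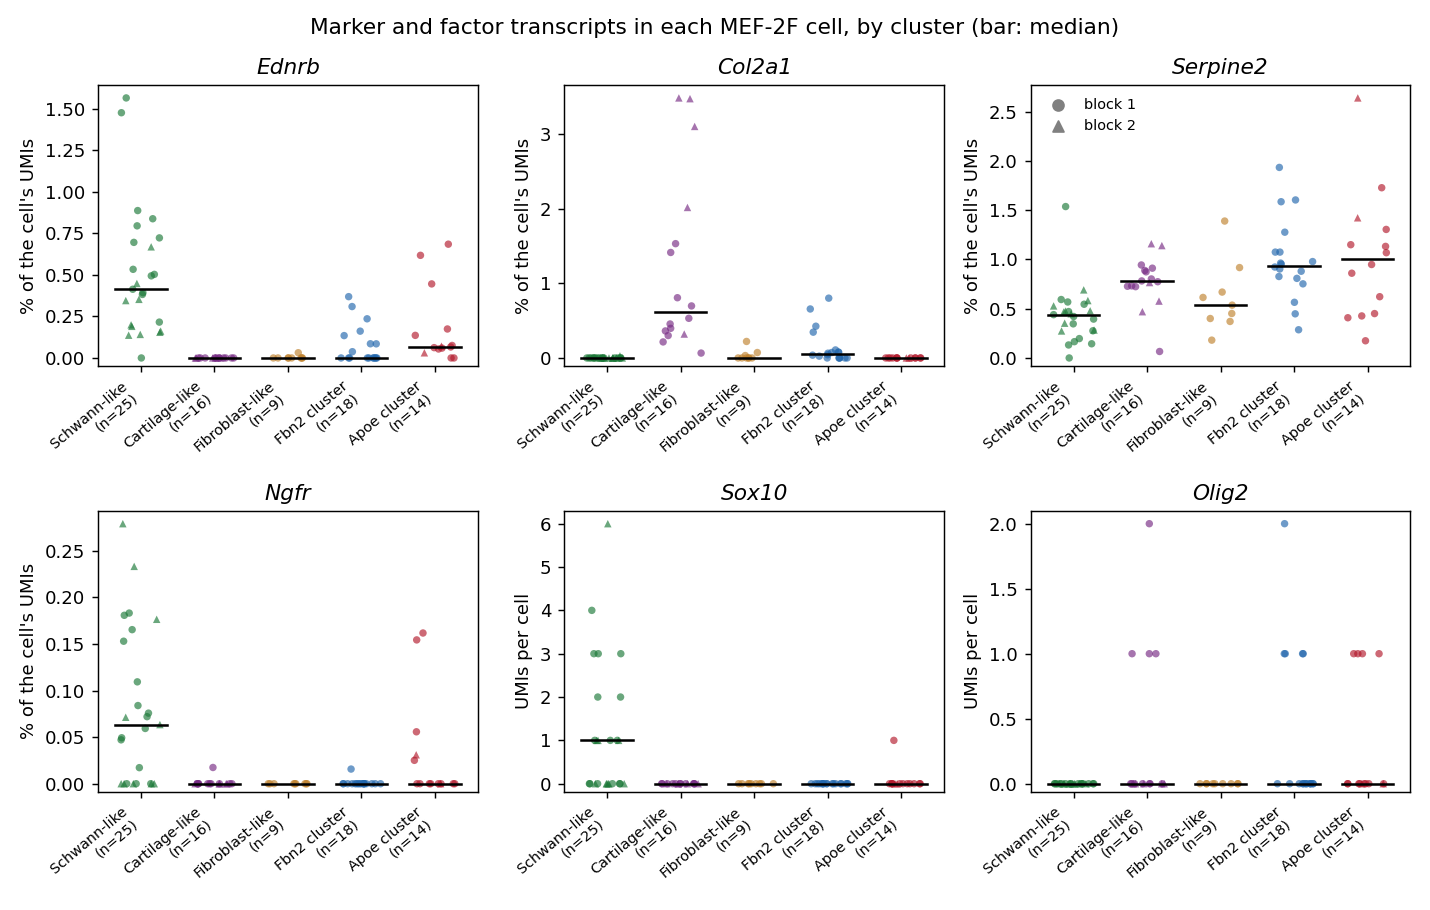
Each point is 1 cell, grouped by cluster (circles block 1, triangles block 2; bar, median); the upper row and Ngfr are plotted as percent of the cell's UMIs, Sox10 and Olig2 as UMIs per cell. Ednrb and Ngfr are highest in the Schwann-like cells, Col2a1 in the cartilage-like cells, and Serpine2 lies between 0% and 2.64% across all 5 clusters; Sox10 lies in the Schwann-like cells and 1 cell of the Apoe cluster, and Olig2 in the cartilage-like, Fbn2 and Apoe clusters.

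The 2 factors that had been given were not found together in any cell. Each was found in so few cells that few with both would be met even if they were detected independently. Sox10 had 30 UMIs in 14 cells, of which 29 UMIs in 13 cells belonged to the Schwann-like cluster. That is 52.0% of the Schwann-like cells (31.3% to 72.2%, median depth 2641), against 1 of the other 57 cells, or 1.75% (0.0444% to 9.39%, median depth 2327). Olig2 had 15 UMIs in 13 cells, of which 4 were cartilage-like, 5 of the Fbn2 cluster and 4 of the Apoe cluster. None of the 25 Schwann-like cells had an Olig2 UMI (0% to 13.7%), against 22.8% of the 57 others (12.7% to 35.8%). No cell had more than 2 Olig2 or 6 Sox10 UMIs, so at this depth a cell without a UMI may still express the gene. With each cell thinned to 1000 UMIs, which 75 of the 82 cells allowed, Sox10 was in 7 of 22 Schwann-like cells, or 31.8%, and in no other cell. Olig2 was then in 0 of the 22 and in 6 cells of the other clusters.

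The cells with a Sox10 UMI and those with an Olig2 UMI also lay apart in their share of the Schwann and neural crest list. The Schwann and neural crest list made up between 1.23% and 4.15% of the UMIs in the 14 Sox10 cells, with a median of 1.69%. It made up between 0.0317% and 0.923% in the 13 Olig2 cells, with a median of 0.226%. The cartilage list had a median of 0.101% (0% to 0.176%) in the Sox10 cells and of 2.18% (0% to 5.14%) in the Olig2 cells. The ranges overlapped for the cartilage list but not for the Schwann list, of which Sox10 is itself 1 of 24 members. The Sox10 cells were deeper, with a median of 3340.5 UMIs against 2475 in the Olig2 cells, and all 13 Olig2 cells were of block 1. Whether transcripts made from the viruses were counted for either gene is not given in the sources used here. Nkx6-2, which was not given to these cells, had 1 UMI in 1 cell.

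Genes of the oligodendrocyte lineage did not mark one cluster. Of the 25 genes on the OPC list, 19 were listed in the library and 4 had 50 or more UMIs, all of them chondroitin sulfate proteoglycans. Cspg4, the NG2 proteoglycan of OPCs and pericytes, stood at 877 CPM (632 to 1186) in the cartilage-like and 678 CPM (466 to 952) in the Fbn2 cells, against 39.4 CPM in the Schwann-like cells and 0 in the Apoe cluster. Vcan, versican, had 55 UMIs in the cartilage-like and 71 in the Fbn2 cells, and Bcan, brevican, 47 and 37, while neither had a UMI in a Schwann-like cell. Cspg5 had 21 and 30 UMIs, against 3 in the Schwann-like cells.

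The defining members of the list were scarce. Pdgfra, the growth factor receptor that defines OPCs, had 4 UMIs in 3 cells, all of the Fbn2 cluster. Olig1, the partner of Olig2, had 7 UMIs in 4 cells, and Nkx2-2, Neu4, Lhfpl3, Cacng4, Pcdh15 and Nxph1 were not listed. The OPC list as a whole stood at 4578 CPM in the Fbn2 cluster and 4219 CPM in the cartilage-like cells, against 932 CPM in the Schwann-like cells. In the Fbn2 cluster 5 of the 7 members compared were higher and 1 lower, where 4.97% of all genes compared were higher. In the cartilage-like cells 4 of 8 were higher and 2 lower, where 5.29% of all genes compared were higher. The list was drawn up with earlier results of these data known.

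Myelin genes went with the Schwann-like cells. Of the 25 genes on the oligodendrocyte and myelin list, 18 were listed. Of the 9 compared, 7 were higher in the Schwann-like cells, where 12% of all genes compared were. This list too was drawn up with earlier results of these data known. Cnp, an enzyme of myelin sheaths, stood at 2101 CPM in the Schwann-like cells. Mbp, myelin basic protein, had 27 UMIs in 4 cells, all Schwann-like, with 19 of them in 1 block 2 cell. Mag had 3 UMIs, and Mog, Mobp, Myrf, Enpp6 and Ermn of the list were not listed in the library.

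The 16 cartilage-like cells formed the opposite end of the library. Col2a1 stood at 13930 CPM (12893 to 15029) in them and was found in all 16, with 1, 19.5 and 247 UMIs in the lowest, the median and the highest cell. It stood at 2156 CPM (1763 to 2610) in the Fbn2 cluster, in 12 of 18 cells, and at 558 CPM (297 to 954) in the fibroblast-like cluster, in 3 of 9 cells. The Schwann-like cells held 1 UMI in 1 of 25 cells, or 4% (0.101% to 20.4%, median depth 2641), and the Apoe cluster none. Without the 1 uncertain count near 247, which becomes 25, the cartilage-like level was 9337 CPM, still above the Fbn2 cluster. In cells thinned to 1000 UMIs, Col2a1 was in 15 of 15 cartilage-like and 10 of 16 Fbn2 cluster cells.

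All 10 members of the cartilage list that had 50 or more UMIs had an excess of 1 or more between cells, where 15.8% of the 729 genes did. The fibril collagen Col11a1 had 1125 UMIs, of which 648 were in the cartilage-like and 350 in the Fbn2 cells. Col9a1, Col9a2 and Col9a3, the chains of type IX collagen that coat type II fibrils, had 232, 95 and 63 UMIs in the cartilage-like cells. The proteoglycan aggrecan, Acan, had 39 of its 54 UMIs there, and the chondromodulin gene, listed as Lect1, 44 of 58. Of 12 list members compared, 10 were higher in the cartilage-like cells (5.29% of all genes compared) and 0 lower. The cartilage list was drawn up with earlier results of these data known, and its genes also shaped the clusters, so these counts are descriptions. Sox9, the main factor of cartilage formation, had 4 UMIs in 4 cells, 2 of them cartilage-like. The partners Sox5 and Sox6 had 9 and 14 UMIs, of which 5 and 7 were in the cartilage-like cells. Comp, Matn3, Chad, Mia, Epyc, Ucma and Fmod were not listed.

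Within the cartilage-like cells the genes that set them apart differed in how evenly they were spread. Col11a2 had an excess of 0.168 among the 16 cells and was found in 15, Col9a1 had 0.202 and was found in 14, and Fn1, fibronectin, had 0.309 and was found in all 16. Acan and Lect1, each in 12 cells, had 0.548 and 0.643, and the collagen Col9a2, also in 12, had 1.22. Igfbp2, an insulin-like growth factor binding protein, was in 7 of the 16 cells with an excess of 3.77, and 55.6% of its UMIs in the cluster came from 1 cell. Smoc2, a matricellular protein, was in 9 cells with an excess of 2.26, and Cytl1, a small secreted protein, in 7 with 1.80. Col2a1 itself had 0.825.

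Set directly against each other, 414 genes could be compared between the Schwann-like and the cartilage-like cells, of which 87 were higher and 53 lower in the Schwann-like cells, by an interval wholly beyond 2-fold and in the same direction in both blocks. Ednrb was at least 79-fold higher, taking 3 counts over the cartilage-like cluster as the floor. The protease inhibitor chain Itih5 was at least 11.9-fold and Foxd3 at least 9.01-fold higher. Cnp was 50.3-fold higher (13.7 to 419) against 2 UMIs in the cartilage-like cells. Plekha4, Ndrg1, Atp8a1, Gas2l3, Metrnl and Rap2a, all without a UMI in the cartilage-like cells, were at least 6.91-fold to 9.64-fold higher.

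In the other direction the cartilage-like over Schwann-like ratio of Col2a1 was 1061 (190 to 41971), against 1 Schwann-like UMI. That of Fn1 was 106 (53.5 to 247), with 11153 CPM in the cartilage-like and 105 CPM in the Schwann-like cells. Col11a2 had a ratio of 310 (55.0 to 12314) and Col9a1 of 123 (41.6 to 601). Igfbp2 was at least 43.0-fold higher in the cartilage-like cells, Hapln1, the link protein that ties aggrecan to hyaluronan, at least 29.7-fold, and Vcan at least 29.2-fold. Smoc2, Cytl1, Bcan, Acan and Lum, also without a Schwann-like UMI, were at least 17.5-fold to 27.6-fold higher. Within block 1 alone the ratio was 66.0 for Fn1 and 161 for Col11a2, and Col2a1, with no Schwann-like UMI there, was at least 115-fold higher. Cytl1 had 7 of its 51 cartilage-like UMIs in block 1 and was at least 3.21-fold higher there, and Igfbp2 without its highest cell was at least 21.2-fold higher.

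The sequences before the start of 4 genes are shown for contrast: Ednrb and Egfl8 mark the Schwann-like cells, Col11a2 marks the cartilage-like cells, and Serpine2 was found in nearly all cells. They are the 250 bases before the start, 5′ to 3′ on the strand of the gene, from RefSeq with build GRCm38.p6. The core of the motif known for Sox factors, searched as ACAAAG or ACAATG on both strands, is in capitals.
Ednrb (chr14:103843702-103843951, minus strand): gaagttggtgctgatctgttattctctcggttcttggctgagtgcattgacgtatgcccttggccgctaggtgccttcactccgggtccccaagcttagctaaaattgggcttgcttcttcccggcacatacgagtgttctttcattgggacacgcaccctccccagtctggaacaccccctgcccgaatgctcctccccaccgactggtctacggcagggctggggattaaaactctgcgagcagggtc
Egfl8 (chr17:34615972-34616221, minus strand): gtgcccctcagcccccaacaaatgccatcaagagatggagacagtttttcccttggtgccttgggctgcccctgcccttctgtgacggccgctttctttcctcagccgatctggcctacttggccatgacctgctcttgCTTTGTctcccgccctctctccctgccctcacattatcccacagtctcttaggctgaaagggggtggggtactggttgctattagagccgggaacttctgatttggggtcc
Col11a2 (chr17:34038888-34039137, plus strand): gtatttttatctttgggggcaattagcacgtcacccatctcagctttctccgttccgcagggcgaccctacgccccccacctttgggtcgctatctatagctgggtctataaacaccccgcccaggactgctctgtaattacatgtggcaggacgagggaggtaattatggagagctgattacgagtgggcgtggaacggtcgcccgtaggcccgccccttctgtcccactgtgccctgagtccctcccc
Serpine2 (chr1:79858666-79858915, minus strand): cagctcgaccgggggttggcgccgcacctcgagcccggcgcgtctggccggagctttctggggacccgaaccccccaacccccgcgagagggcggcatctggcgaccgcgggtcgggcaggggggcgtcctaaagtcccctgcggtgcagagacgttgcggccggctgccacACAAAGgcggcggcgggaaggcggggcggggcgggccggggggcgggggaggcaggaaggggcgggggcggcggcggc
The motif was present once in the Egfl8 sequence and once in that of Serpine2, and these letters were not in the windows of Ednrb and Col11a2. Of all 27025 promoters, with the first start of each gene, 25.5% held it. It was in 2 of the 13 Schwann list promoters and in 2 of the 14 cartilage list promoters that could be matched.

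No cell gave 1% or more of its UMIs to both the Schwann and the cartilage list. Of the 82 cells, 27 reached 1% for the Schwann list alone, 27 for the cartilage list alone and 28 for neither. The Schwann list reached at most 0.928% in a cell of the cartilage group, and the cartilage list at most 0.496% in a cell of the Schwann group. These classes are ranges of a score, and 4 cells lay between 0.8% and 1.2% on each list. The cells at neither threshold were 11 of the Apoe cluster, 7 fibroblast-like, 6 of the Fbn2 cluster, 3 cartilage-like and 1 Schwann-like. No doublet caller was run on so few cells.

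**Figure D3:**
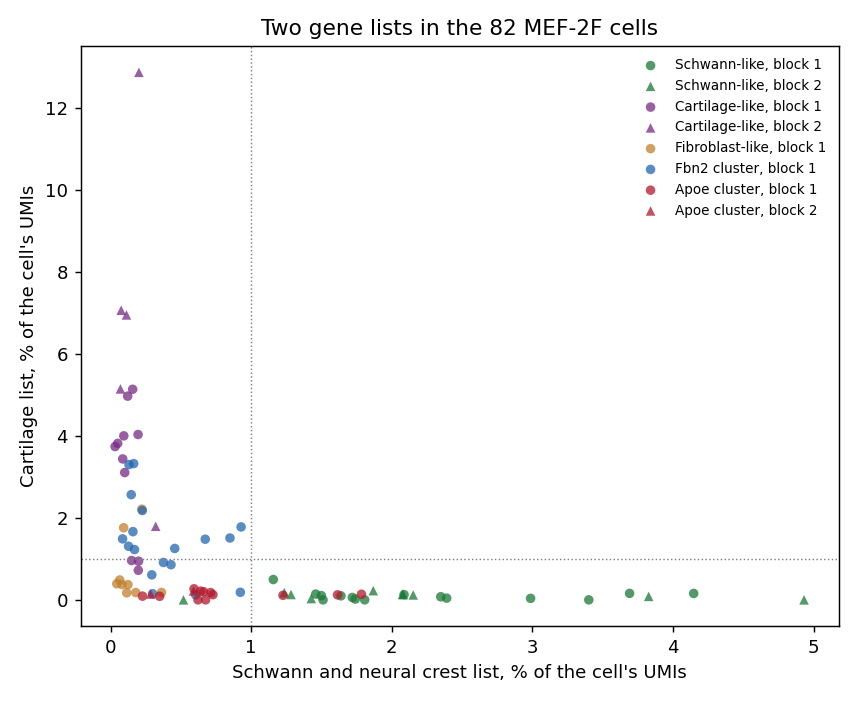
Each point is 1 of the 82 cells; the axes give the percent of its UMIs from the Schwann and neural crest list and from the cartilage list, colour the cluster, shape the block, and dotted lines 1%. The cells lie along the 2 axes, no cell is past both lines, and 3 cells of the Fbn2 cluster with over 1% of cartilage transcripts come nearest to the other line, at up to 0.928%.

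The median pair within each of these lists was positively correlated across cells, though not every pair was. Over the 36 pairs of the 9 Schwann list members with 50 or more UMIs, the median correlation of log2 levels across the 82 cells was 0.41, with a lowest of -0.26. Over the 45 pairs of the 10 cartilage list members it was 0.52, with a lowest of 0.18. Between the lists, over 90 pairs, it was -0.33, with a highest of 0.52, and over all pairs of the 729 genes it was 0.04. The 17 members of the fibroblast and matrix list gave 0.13. All of these are descriptions over cells that share a library, differ in depth and fall into clusters.

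The Fbn2 cluster was near the cartilage-like cells but differed in its parts. Across the 729 genes, the correlation of log2 levels between clusters was 0.65 for the Fbn2 cluster with the cartilage-like cells and 0.30 with the Schwann-like cells. Fbn2, the microfibril protein fibrillin 2, stood at 1109 CPM in the Fbn2 cluster, in 11 of 18 cells, and was 53.1-fold higher (9.13 to 2135) than in the cartilage-like cells, which held 1 UMI. Within block 1, where they held none, it was at least 12.4-fold higher. Moxd1, which encodes a copper monooxygenase, was 5.01-fold higher (2.52 to 11.1). Ednrb was at least 13.1-fold higher, and Apoe, apolipoprotein E, 10.2-fold (3.17 to 51.9).

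Genes of the cartilage list were among those on the lower side. Of 206 genes compared, 6 were higher and 16 lower in the Fbn2 cluster, with the direction checked in block 1 only. The cartilage-like over Fbn2 cluster ratio was 41.2 for Igfbp2 (11.04 to 346), 26.4 for Smoc2 (6.96 to 224), 8.79 for Col9a2 (4.69 to 18.2) and 6.46 for Col2a1 (5.25 to 8.02). Within block 1, the only block with cells of the Fbn2 cluster, that of Col2a1 was 3.46. Without the 1 cell that held the most of each, the ratio was 20.3 for Igfbp2 and 16.4 for Smoc2. Hapln1, in contrast, stood at 1499 CPM in the Fbn2 cluster, in 12 of 18 cells, and Col11a1 at 7186 CPM in 16 of 18. Col11a1 had an excess of 0.0916 among the Fbn2 cells, whereas Col2a1 had 1.67 and Fbn2 1.97, so Col11a1 was the more even of these genes among the cells.

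The 9 fibroblast-like cells were the smallest group and all belonged to block 1. Dcn, decorin, a small proteoglycan of fibroblast matrix, stood at 2061 CPM (1520 to 2732) and was 49.3-fold higher (12.9 to 419) than in the cartilage-like cells. It was found in 4 of the 9 cells, and 45.8% of its UMIs in the cluster came from 1 of them, without which the ratio was 31.8. Within block 1, where the cartilage-like cells held none, it was at least 23.1-fold higher. Lum, lumican, was in 8 of 9 cells at 2490 CPM, and Fstl1, a secreted follistatin-like protein, in 8 of 9 at 5667 CPM, or 11.3-fold higher (7.28 to 18.3) than in the cartilage-like cells. Col6a1 and Col6a2, chains of type VI collagen, were 4.06-fold and 3.23-fold higher.

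Of the 22 members of the fibroblast and matrix list compared, 15 were higher in the fibroblast-like cells (4.36% of all genes compared) and 2 lower. This list too was drawn up with earlier results of these data known. Col1a1, the main chain of type I collagen, was in 9 of 9 fibroblast-like cells at 3478 CPM (2762 to 4322). It was in 18 of 25 Schwann-like cells at 1470 CPM (1211 to 1769) and in 4 of 16 cartilage-like cells at 1399 CPM (1084 to 1777). Of the 67 Col1a1 UMIs of the cartilage-like cells, 37 were in 1 cell. Postn, periostin, took another course, with 255 of its 409 UMIs in the Schwann-like cells and 2 in the fibroblast-like. Sparc, a matrix glycoprotein, was in all 82 cells with an excess of 0.120, between 0.426% and 3.00% of a cell's UMIs. Thy1, Lox and Mfap5 were not listed, and Acta2, the smooth muscle actin, had 3 UMIs in 2 cells.

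The Apoe cluster lay beside the Schwann-like cells. The correlation of their log2 levels across the 729 genes was 0.74, the highest of the 10 pairs of clusters. Of 354 genes compared, 6 were higher and 11 lower in the Apoe cluster, with the direction checked in block 1 only. Spp1, osteopontin, was 42.7-fold higher (16.0 to 161), but it was in 4 of the 14 cells, 76.3% of its UMIs in the cluster came from 1 block 2 cell, and without that cell it was 11.2-fold higher. The creatine kinase Ckb was 3.44-fold higher (2.53 to 4.69), Btg2, an early response gene that restrains growth, 4.14-fold (2.49 to 7.03), and Serpine2 2.49-fold (2.14 to 2.91). Sparcl1, a relative of Sparc, had 32 UMIs in the 14 cells of the Apoe cluster and 18 in the 25 Schwann-like cells, and Maged1 was 3.79-fold higher. Apoe itself stood at 3603 CPM in the Apoe cluster, in 13 of 14 cells, and at 959 CPM in all other cells. It was not among the 6 genes higher than in the Schwann-like cells. Within block 1 it stood at 3489 CPM (2845 to 4235) in the Apoe cluster and 2467 CPM (2035 to 2964) in the Schwann-like cells.

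Among the 11 lower genes were Prx and Pmp22 of peripheral myelin. The Schwann-like over Apoe cluster ratio was 19.3 for Nid1 (6.45 to 94.6), 13.4 for Gatm (5.12 to 50.2) and 13.8 for Prx, periaxin of the peripheral myelin sheath (2.30 to 562). Within block 1 that of Gatm was 22.4. Egfl8 was at least 6.08-fold higher in the Schwann-like cells. Pmp22, another peripheral myelin protein, had a ratio of 4.25 (2.14 to 9.60) and Ednrb of 2.70 (2.06 to 3.60). The Apoe cluster kept Foxd3 in 10 of 14 cells and Sox2, a factor of precursor cells, in 8 of 14.

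The immediate early and heat shock list stood at 17305 CPM in the Apoe cluster and 16400 CPM in the fibroblast-like cells, against 6898 CPM in the Fbn2 cluster. Of its 15 members compared, 3 were higher in the Apoe cluster (4.19% of all genes compared) and 3 in the fibroblast-like cells (4.36%). Fos was in all 14 Apoe cluster cells, between 6 and 33 UMIs, but also in all fibroblast-like and all cartilage-like cells. Jun stood at 1476 CPM in the Apoe cluster and 464 CPM in the other cells, and the early matrix gene Cyr61 at 4046 and 1454 CPM. The cells had been taken from their dish with trypsin before capture, and the part of that step in these levels was not tested.

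The 25 Schwann-like cells differed among themselves. Gatm was found in 19 of them with 0, 3 and 33 UMIs in the lowest, the median and the highest cell, and an excess of 1.09 within the cluster. Ednrb had 0.422 and Erbb3, the neuregulin receptor, 0.0376, each in 24 of 25 cells. Egr2 and Pou3f1, regulators of myelination chosen here after their values were seen, were in 8 and 9 of the 25 cells, with excesses of 1.30 and 2.30. Their correlation with Ngfr across the 25 cells was -0.61 and -0.62, and that of Ednrb with Ngfr was -0.24. With at most 4 Egr2 and 13 Pou3f1 UMIs in a cell, these values are descriptions of few counts.

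Transcripts of the cell cycle were many in few cells. Of the 82 cells, 48 held none of them and 12 held 3 or more UMIs. In the library 6 cells had 10 or more UMIs from 25 cell-cycle genes, 5 of them Schwann-like and 1 cartilage-like. The 5 Schwann-like cells held between 13 and 46 such UMIs and the other 20 between 0 and 3. Ednrb stood at 3493 CPM (2756 to 4365) in the 5 cells and 5543 CPM (4934 to 6207) in the 20, and Sox10 at 363 and 388 CPM. Mbp had no UMI in the 5 cells and 27 UMIs in 4 of the 20. The 5 cells had a median of 5231 UMIs, against 2269 in the 20. Of the 5 cells 4 were of block 1, and of the 20 cells 11.

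**Figure D4:**
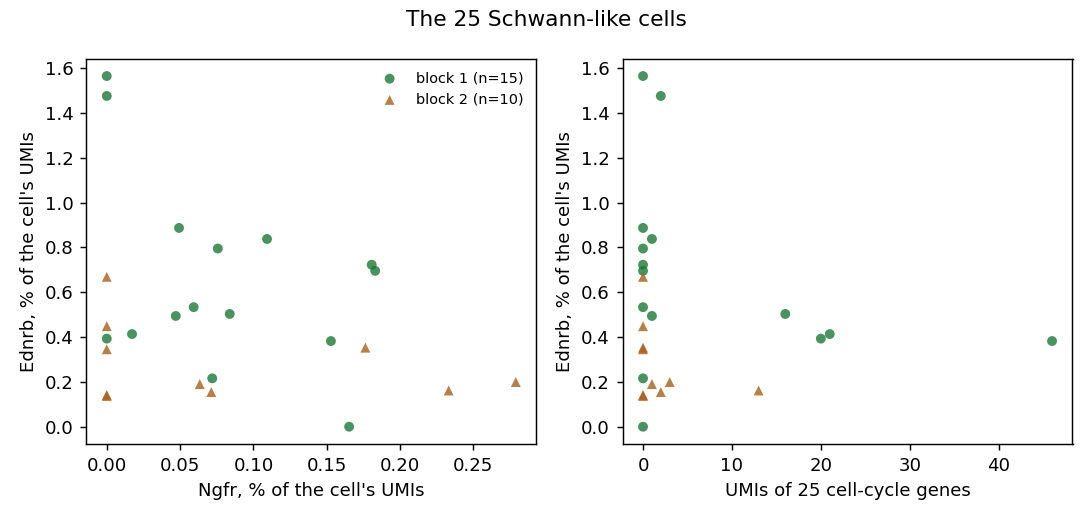
Each point is 1 of the 25 Schwann-like cells (circles block 1, triangles block 2), with Ednrb as percent of the cell's UMIs on the vertical axis and Ngfr, as percent, and the UMIs of 25 cell-cycle genes on the horizontal axes. The 2 cells with the most Ednrb, both of block 1, have no Ngfr. The 5 cells with 13 or more cell-cycle UMIs lie at 0.503% Ednrb or less, where the median of all 25 cells is 0.414%.

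The blocks differed in their clusters and within them. The Schwann-like cells were 23.1% of block 1 and 58.8% of block 2. In the Schwann-like cells Ednrb stood at 6666 CPM in the 15 cells of block 1 and at 2303 CPM in the 10 cells of block 2. In the cartilage-like cells Col2a1 stood at 7468 CPM in the 11 cells of block 1 and at 29148 CPM in the 5 cells of block 2, where the uncertain count lies. In these 2 clusters Serpine2 differed less, at 3853 and 4772 CPM in the Schwann-like cells and 7647 and 9739 CPM in the cartilage-like cells of block 1 and block 2. In the Apoe cluster Serpine2 stood at 8585 CPM in the 12 cells of block 1 and 22688 CPM in the 2 cells of block 2. The Fbn2 and fibroblast-like clusters had no block 2 cell, so no difference between blocks can be measured within them. The correlation of Ednrb with Col2a1 was -0.50 within block 1 and -0.89 within block 2, beside -0.57 over all cells.

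Serpine2 was lowest in the Schwann-like cells. It stood at 4214 CPM (3766 to 4702) there, at 6011 CPM (5056 to 7093) in the fibroblast-like, 8271 CPM (7476 to 9127) in the cartilage-like, 10513 CPM (9449 to 11660) in the Apoe and 10779 CPM (9876 to 11740) in the Fbn2 cluster. The last 2 intervals overlapped, and within block 1 the Apoe cluster stood at 8585 CPM (7556 to 9716), below the Fbn2 cluster, while its 2 block 2 cells stood at 22688 CPM. It was in 24 of the 25 Schwann-like cells and in all 57 others. Of the 17 genes on the list of secreted protease inhibitors and proteases, which holds Serpine2, 14 were listed and 5 had 50 or more UMIs, and 0 of these had an excess of 1 or more. With 15.8% of all 729 genes there, 0 of 5 does not set the list apart. Serpinh1, a collagen chaperone, had 1166 UMIs and 0.86, Mmp2, a matrix protease, 596 UMIs and 0.31, and Timp2, an inhibitor of such proteases, 293 UMIs and 0.25. Timp1 had 31 UMIs, none of them in a Schwann-like cell.

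The genes most like each marker across the 82 cells came from 100 UMIs or more and from correlations of log2 levels. Among the nearest to Ednrb were Nid1 (0.65), Qk, an RNA-binding protein of glia (0.65), Gatm (0.64), Cnp (0.63) and Ctnna1, alpha-catenin (0.59), and farthest were Fn1 (-0.73), Col11a1 (-0.64) and Gpc3, a glypican (-0.62). Nearest to Col2a1 were Col11a2 (0.83), Col9a1 (0.81), Fn1 (0.75), Col11a1 (0.70), Hapln1 (0.70) and Vcan (0.66), and farthest were Cnp (-0.57), Gpm6b (-0.57) and Ednrb (-0.57). Serpine2 had weaker ties, with Sdf4 (0.46), Col11a1 (0.42), Naca (0.38), Col9a1 (0.37), Calr (0.36) and Rpn2 (0.36) nearest and Nid1 (-0.40) and Cnp (-0.36) farthest.

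Over the whole library, 115 of 729 genes had an excess of 1 or more. Of the 20 largest, Igfbp2 led with 20.5, all of its 83 UMIs lying in 8 cells. Dcn followed with 15.2 and 6 cells, Smoc2 with 11.2, Cytl1 with 7.68, Efemp1, a fibulin, with 7.27, and Fbn2 with 7.06. Col2a1 was seventh. Spp1 had 6.48, in 23 cells, of which 1 fibroblast-like cell held 25.2% of the UMIs. Ogn, osteoglycin, had 5.99, Col9a2 5.53, the matrix signalling genes Thbs1 and Ctgf 4.96 and 4.95, and Gatm 4.64. Also among the 20 were Col6a2 at 4.14, Col9a3, Acan, Aebp1, Lect1 and, at 3.54, Lum. At the other end 209 genes lay below 0.1, within what counting alone gives or close to it.

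**Figure D5:**
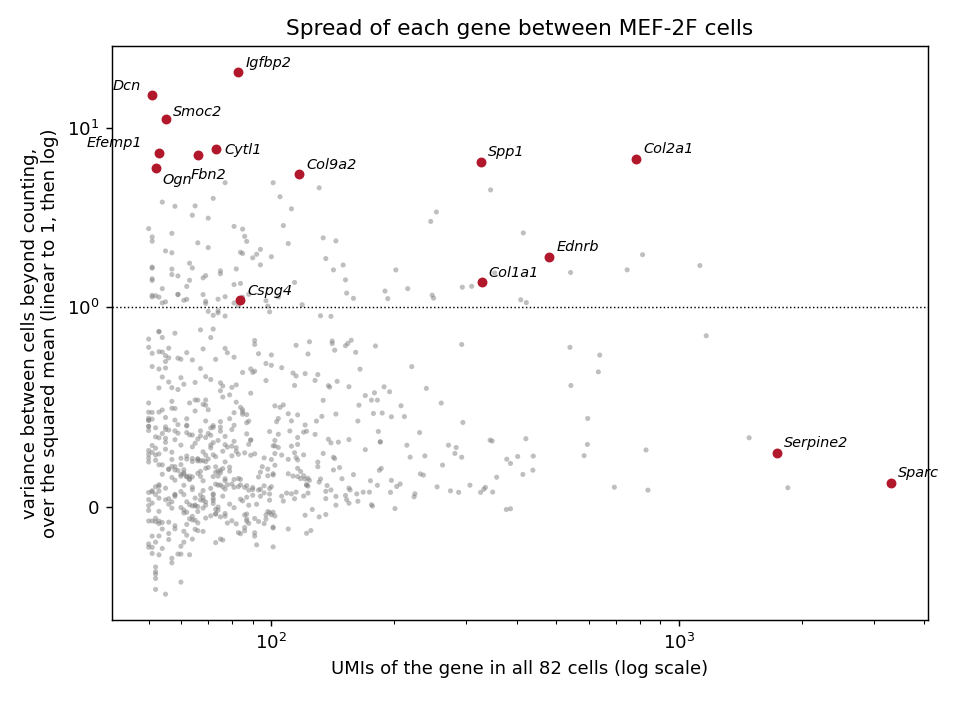
Each grey point is 1 of 729 genes with 50 or more UMIs, with its UMIs in the 82 cells on a log axis and its excess variance between cells on an axis that is linear to 1 and logarithmic above; red points are the 10 largest and 5 further named genes. Col2a1 at 6.75 stands out among genes of its abundance, and Serpine2 at 0.270 and Sparc at 0.120 are the most abundant labelled genes and lie near 0.

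The skeletal muscle, endothelial, macrophage and blood, epithelial and neuronal lists were at or near 0. The astrocyte, pericyte, bone and contractile lists held 157, 211, 329 and 387 UMIs. None of the 15 skeletal muscle genes was listed. Endothelial genes reached at most 0.173% of a cell's UMIs and had none in 78 of 82 cells, macrophage and blood genes at most 0.142% with none in 77, epithelial genes 1 UMI-bearing cell, and neuronal genes none in 60 cells. Of the 15 genes on the bone list 3 were listed, Spp1 with 326 UMIs, Runx2 with 2 and Dmp1 with 1. Astrocyte list genes stood at 1417 CPM in the Fbn2 cluster and 1023 CPM in the cartilage-like cells, against 184 CPM in the Schwann-like cells. The targets of TGF-beta and YAP stood at 7213 CPM in the fibroblast-like and 5197 CPM in the Apoe cluster, against 2153 CPM in the Schwann-like cells, with Ctgf and Cyr61 on opposite sides, since 56 of 101 Ctgf UMIs were in cartilage-like cells and 1 in the Apoe cluster, which held 137 of 422 Cyr61 UMIs. Of the p53 and senescence, glycolysis, cholesterol, interferon, contractile and pericyte lists, with 2 to 8 members compared each, at most 2 members were higher in any 1 cluster, where between 4.19% and 12% of all genes compared were. Of the 4 members of the Id and Hes list compared, 1 was higher in the Apoe cluster (4.19% of all genes compared), and the list had Id3 with an excess of 1.87 and Hes1 with 0.66.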

How the data were processed

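Single cells were captured in droplets and sequenced from the 3′ end with cell barcodes and UMIs, per the labels' protocols. Named in the submitters' processing notes, with no role or order, are the build mm10 and the tools STAR 2.5.3a, featureCounts 1.6.1 of Subread, UMI-tools 0.5.3 and bcl2fastq 2.19.1.403. The values the authors deposited are whole numbers that are not counts: each is read here as the place of a UMI count, from 0, in the text-sorted list of the counts that occur in a block of barcodes. A block starts where the alphabetical order of barcodes begins again. Counts were recovered per block by aligning the frequency of each place with a smooth curve of frequencies, and the median count of each place was used. This reading was inferred from the values. The recovery of counts was tried on simulated places made under the same reading, which cannot show that the reading itself is right. It is least sure for large counts.

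Cells were clustered in scanpy 1.11.5 on 1000 variable genes, 10 components, 10 neighbours and Leiden resolution 1. Cells were also thinned to 1000 UMIs, which kept 75 of 82. No doublet caller was run. For list counts, a gene was higher in a cluster at 2-fold or more with an interval above 1, among genes with 10 UMIs and 20 CPM on either side. For pairs of clusters, genes with 30 UMIs and 100 CPM in either were named where the interval lay wholly beyond 2-fold in the same direction in each block with 5 or more cells of both, up to 12 a side. Fixed markers, the 20 largest excesses, the genes most and least like a marker and list members were named too. Mitochondrial, ribosomal and unnamed genes were left out. Some genes that these rules name are not reported here, though list counts and sums include them. Leading genes of the clusters, Egr2, Pou3f1 and the cell-cycle comparison were chosen after their values were seen. The cells described and the 23 gene lists were chosen with earlier results of these data known. With 1 library, no test was made.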

Additional observations from a re-analysis of the deposited data

How the results depend on the processing

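No paired analysis was possible because the library is the only sample of its group and no result comes from a test. Of 131 alternatives for the main values, 86 stayed within the limits set and 45 moved. A change of direction could be seen only in the correlations, and 0 of them changed sign. Cluster sizes, levels, shares of cells and spreads could only stay or move. Clusters were compared by size, so a cluster that stayed may hold other cells. With 500 variable genes, the cluster of 28 cells that counted as staying held 16 of the 25 Schwann-like cells. For single genes named among many, 49 of 68 stayed and 19 moved, and the cause was not tested.

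The number of clusters was 3 at Leiden resolution 0.5, where the cartilage-like, fibroblast-like and Fbn2 clusters matched 1 of 38 cells, and 6 at 1.5. With 500 variable genes the fibroblast-like cells matched a cluster of 19 and the Apoe cluster one of 28, and with 2000 the fibroblast-like one of 22. Among cells with 1000 UMIs or more, the Schwann-like cells matched a cluster of 13 and the Fbn2 cluster one of 11. With counts above 20 set to 20, the cartilage-like and fibroblast-like cells matched one of 28.

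With that cap, levels in CPM were 1734 for Ednrb, 1424 for Col2a1 and 5180 for Serpine2 in all cells, 3927 for Ednrb in Schwann-like cells, and 4914 for Col2a1 and 5398 for Serpine2 in cartilage-like cells. In block 1 alone they were 2038 for Col2a1 in all cells, 6666 for Ednrb in Schwann-like and 7468 for Col2a1 in cartilage-like cells. In block 2 alone they were 1453 for Ednrb and 8534 for Col2a1 in all cells, 2303 for Ednrb and 4772 for Serpine2 in Schwann-like cells, and 29148 for Col2a1 and 9739 for Serpine2 in cartilage-like cells. Col2a1 in all cells and in cartilage-like cells was 2715 and 11987 as a mean over cells, 2545 and 10301 without the 5% of cells with the most UMIs, and 2455 and 9337 with the uncertain place read as 25, an alternative chosen after seeing the data, as were the blocks within a cluster and the ratios of clusters in block 1 or without 1 cell.

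Thinned to 500 UMIs, 35.4% of cells had Ednrb and 86.6% Serpine2, and thinned to 1000 UMIs, 100% of the block 2 cells had Serpine2 and 0% Olig2. The excess of Ednrb was 0.700 in block 2 and 1.21 with the cap. That of Col2a1 was 3.903 in block 1, 3.19 in block 2, 2.02 with the cap and 3.80 with the place read as 25, and that of Serpine2 was 0.122 with the cap. The correlation in block 2 was -0.89 for Ednrb with Col2a1 and -0.45 for Ednrb with Serpine2, and that of Col2a1 with Serpine2 was 0.18 in thinned cells.

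The limits are those of 1 library of 82 cells whose counts were recovered from places. Large counts are the least sure, the blocks are unexplained and unequal in their clusters, and depth leaves factors with few UMIs undetected in many cells.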

Other observations

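Sex-linked transcripts fell into separate cells. Xist had a UMI in 10 of the 82 cells and 1 or more of 3 Y-linked genes in 15, no cell held both and 57 held neither. The Fbn2 cluster had 1 cell with Xist and 0 with a Y-linked gene among its 18.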
